A study of Rattus norvegicus with 12 samples.

Results

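The miR-344 family was examined in small RNA libraries made from hippocampal tissue of 12 male adult Sprague Dawley rats, 1 library per rat. Its members were every row of the deposited count lists whose name begins with rno-miR-344, whatever the letter or arm, which gave 7 of the 753 mature miRNAs listed. Rats aged P70 to P80 received an intraperitoneal injection of vehicle (4 rats) or of ethanol at 4 g/kg (8 rats), and tissue was taken 3 h later. The sample labels name the right hippocampus and the paper the dorsal hippocampus, and the planned groups were of 8 rats, so 4 vehicle rats of that plan are not analysed here. The paper states that rats were housed in pairs, and the litter and cage of each rat are not given. Every library gave 1 estimated read count for each mature miRNA, and rats are named here by group and animal number.

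A microRNA is cut from a hairpin precursor whose stem yields a 5p and a 3p arm, and the arm that is loaded into the silencing complex recognises target mRNAs mainly through its seed, the bases from 2 to 8 counted from the 5′ end. The miR-344 genes are best known from rodents, where they were cloned mainly from brain. On the rat assembly GRCr8, as annotated by RefSeq, 7 miR-344 hairpins lie on the minus strand of chromosome 1, in the order Mir344b-2, Mir344b-1, Mir344b-3, Mir344a-2, Mir344-1, Mir344g and Mir344i. Between them the annotation places 7 long non-coding RNA genes and 1 pseudogene, and 0 protein-coding genes. The nearest named protein-coding genes were Ndn, Magel2 and Mkrn3 beyond Mir344i and Slc25a19l1, Snrpn and Snurf beyond Mir344b-2. Ndn, Magel2, Mkrn3 and Snrpn are imprinted genes of the region that is linked to Prader-Willi syndrome in humans. Coordinates are not given, since the submitters' processing notes name the older build rn5.

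Mature sequences for 6 of the 7 members were found by name in RefSeq's miRNA table (GRCr8), and miR-344a-3p had no entry of that name. They are shown 5′ to 3′ with the seed in capitals, because the seed is what separates or joins the members. The 3p arms come first.
miR-344b-3p: gGUAUAACcaaagcccgacugu
miR-344b-1-3p: gAUAUAACcaaagcccgacugu
miR-344i: cUCUAGCCagggcuugacugca
The 5p arms follow.
miR-344b-5p: aGUCAGGCugcugguuauauuc
miR-344g: aGUCAGGCuccuggcaggaguc
miR-344a-5p: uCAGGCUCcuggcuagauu
The 6 sequences held 5 different seeds. Only miR-344b-5p and miR-344g shared a seed among them. The miR-344b 3p arms were alike at 21 of 22 bases, and the single change from miR-344b-3p to miR-344b-1-3p was G2A, counted from the 5′ end, which lies inside the seed. With that change the seed of miR-344b-1-3p was that of miR-410-3p, a miRNA of the large imprinted cluster on another chromosome, and the seed of miR-344a-5p was that of miR-484. No further rat miRNA outside the family shared a seed with a member in that table. RefSeq also lists under Mir344-1, whose synonyms include Mir344a-1, a 3p arm named miR-344-3p and a 5p arm named miR-344-5p.
miR-344-3p: uGAUCUAGccaaagccugaccgu

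The hairpins show which arms the names stand for, and the capitals below mark each mature sequence named in RefSeq.
Mir344b-2: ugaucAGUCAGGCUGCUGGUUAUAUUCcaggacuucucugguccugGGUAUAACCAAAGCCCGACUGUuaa
Mir344b-1: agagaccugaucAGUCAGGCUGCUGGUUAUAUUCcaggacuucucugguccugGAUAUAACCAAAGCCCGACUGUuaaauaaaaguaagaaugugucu
Mir344g: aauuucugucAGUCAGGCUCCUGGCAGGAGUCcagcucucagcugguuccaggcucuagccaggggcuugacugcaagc
Mir344i: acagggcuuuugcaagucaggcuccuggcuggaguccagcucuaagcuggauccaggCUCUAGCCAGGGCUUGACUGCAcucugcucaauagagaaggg
Mir344b-2 and Mir344b-3 were identical over their 71 bases, and Mir344b-1 differed from both at 1 of those 71. As a result miR-344b-5p is encoded by 3 hairpins, miR-344b-3p by 2 and miR-344b-1-3p by 1. The named arm of Mir344g lies on the 5p side of its hairpin and that of Mir344i on the 3p side.

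Library totals ranged from 2243413 to 4917928 in vehicle rats and from 1960704 to 3598771 in ethanol rats [two-sided exact permutation test of mean log2 totals, p = 0.156]. Values are given as CPM, counts scaled to a common library size of 1000000 after TMM scaling (a scaling that discounts the most variable miRNAs). Taking 3 counts as the smallest detectable amount gave a floor of 0.631 to 1.57 CPM, which covers counting error only. All 4 neuronal marker miRNAs (miR-124-3p, miR-9a-5p, miR-128-3p and miR-137-3p) were read in every library, with a sum of 32726 to 37659 CPM in vehicle rats and 29753 to 37151 in ethanol rats. Markers of choroid plexus (3 of 3 read in every library) summed to between 28981 and 50272 CPM in vehicle rats and between 16517 and 70887 in ethanol rats. Markers of striated muscle (5 of 5 read in every library) summed to between 128 and 1766 CPM in vehicle rats and between 113 and 1712 in ethanol rats. These ranges hide an uneven division between the groups. The muscle sum was 1686, 1626 and 1766 CPM in vehicle rats 9, 19 and 20 and 128 in vehicle rat 10. It was 1712 CPM in ethanol rat 16 and from 113 to 290 in the other ethanol rats. The part of these tissue markers in the values of the miR-344 family was not tested.

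The family as a whole was a small and even fraction of the hippocampal miRNA. The 7 members together took 0.0167% to 0.0217% of the scaled counts, from 362 to 933 reads per library. Their sum was 197, 209, 184 and 199 CPM in vehicle rats 9, 10, 19 and 20. In ethanol rats it had a lowest value of 167, a median of 185.5 and a highest value of 217 CPM. After scaling to library size the sum spanned a 1.30-fold range. Before scaling, the family's reads spanned a 2.58-fold range and the library totals a 2.51-fold range. The lowest 3 scaled sums were those of ethanol rats 3, 4 and 23. Most of this sum came from 3p arms. Of the family's reads, miR-344a-3p gave 34.8% to 43.1%, miR-344b-3p and miR-344b-1-3p together gave 49.0% to 55.8%, miR-344i gave 2.76% to 6.36% and miR-344b-5p gave 1.66% to 5.69%.

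**Figure D1:**
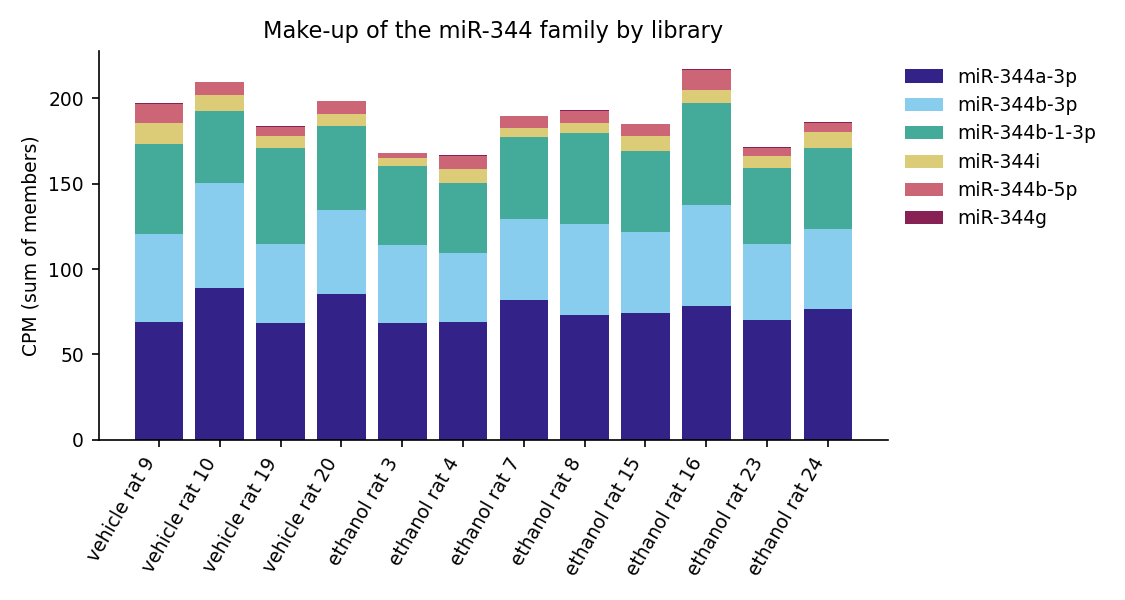
Stacked bars give the CPM of each miR-344 member (vertical axis, counts scaled to 1000000 after TMM) in each of the 12 libraries (horizontal axis). The bars reach between 167 and 217 CPM, and miR-344a-3p with the pair of miR-344b 3p rows makes up most of each bar; miR-344a-5p had 0 reads and is not drawn.

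The count lists gave a read to 6 of the 7 members. By the study's removal of rarely read miRNAs, which dropped those under 10 reads in at least 10 libraries, 420 miRNAs and 5 of the 7 members were retained. The row of miR-344a-5p was listed at 0 in all 12 libraries. So was that of miR-129-5p, which belongs to a list of neuron-enriched miRNAs, and whether such rows were counted at all cannot be told from these lists. Reads of miR-344g numbered 0 in 4 libraries, 1 in 5 and 2 in 3, a total of 11 reads, and each library lay under the floor of 3 counts. The sequence that miR-344g shares its seed with, miR-344b-5p, had between 6 and 36 reads.

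Among single rows, miR-344a-3p was the most abundant member. It was read at 68.7, 88.95, 68.3 and 85.4 CPM in vehicle rats 9, 10, 19 and 20. In ethanol rats its lowest value was 68.1, its median 73.5 and its highest 81.8 CPM. At 75.2 ± 7.12 CPM (SD, n = 12) it ranked 199 of the 420 retained miRNAs, whose median was 65.8 CPM. Next came miR-344b-3p, at 49.6 ± 6.04 CPM (SD, n = 12), and miR-344b-1-3p, at 48.9 ± 5.56 (SD, n = 12). The retained members at the low end were miR-344i, at 7.69 ± 2.16 CPM (SD, n = 12), and miR-344b-5p, at 7.08 ± 2.42 (SD, n = 12). These ranked 357 and 365.

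Neighbours in this order were compared within libraries by a two-sided exact sign-flip permutation test of log2 CPM over the 12 libraries. Adjustment was over the 4 neighbouring pairs. The order came from these same values, so the pairs and their direction were not set beforehand. Expression of miR-344a-3p exceeded that of miR-344b-3p by 0.59 on the log2 scale in 12 of 12 libraries [p = 0.000488, the smallest that the exact test can give, adjusted p = 0.000977]. Expression of miR-344b-1-3p exceeded that of miR-344i by 2.60 in 12 of 12 libraries [exact p = 0.000488, adjusted p = 0.000977]. The difference between miR-344i and miR-344b-5p, 0.14 on the log2 scale with miR-344i the higher in 7 of 12 libraries, was within its spread [exact p = 0.272, adjusted p = 0.363]. For miR-344b-3p over miR-344b-1-3p the mean log2 difference was 0.02, and no order can be read from it, since their counts were the same or within 1 read in 10 of 12 libraries.

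**Figure D2:**
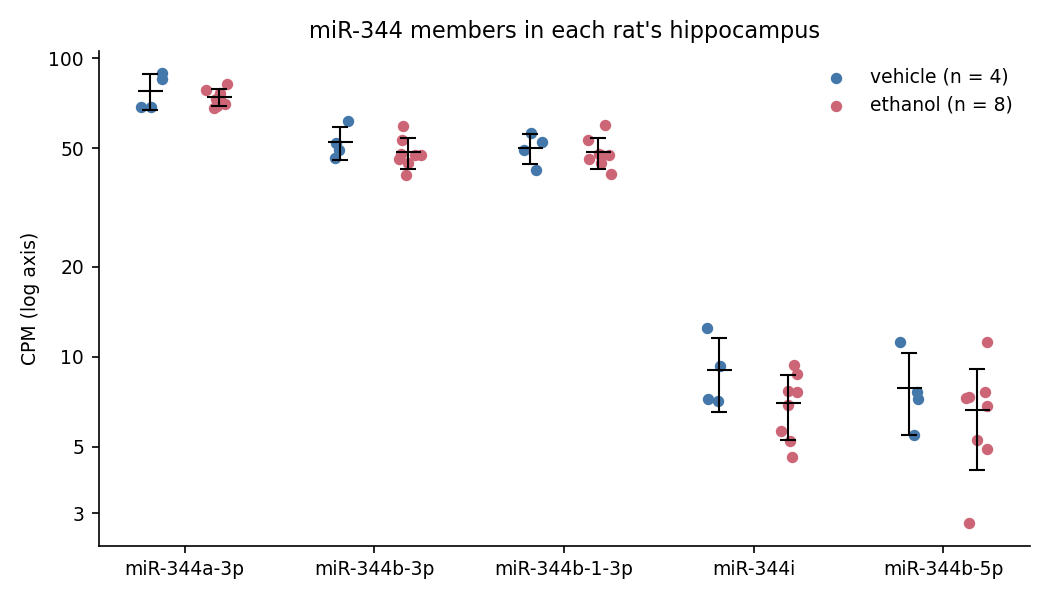
Points give the CPM (vertical axis, logarithmic) of each retained member in each rat, with vehicle (n = 4) and ethanol (n = 8) side by side, and the bars show the mean and SD of each group. The members form a high set (miR-344a-3p and the miR-344b 3p rows, 40.7 to 88.95 CPM) and a low set (miR-344i and miR-344b-5p, 2.78 to 12.5 CPM), and within each member the groups overlap.

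The miR-344b 3p rows held equal or nearly equal counts in 10 of 12 libraries, and the counting rule behind them is not given in the sources used here. Their deposited counts were identical, within 0.000001 reads, in 6 of 12 libraries, all from ethanol rats, for example 132 and 132 in ethanol rat 8 and 135.5 and 135.5 in ethanol rat 23. In a further 4 libraries they differed by less than 1 read. In each library the counts of these rows summed to a whole number within 0.01, from 182 to 487. Only in vehicle rats 10 and 19 did the rows part. The share of miR-344b-1-3p in the summed reads was 40.7% in vehicle rat 10, with 99.4 reads against 144.6 for miR-344b-3p. In vehicle rat 19 it was 54.9%, with 267 reads against 220. Over all 87990 pairs of retained miRNAs, 5 pairs were within 1 read of each other in at least 6 libraries at 10 or more reads. They were the miR-344b pair, let-7a-1-3p with let-7c-2-3p (12 libraries) and 3 pairs among miR-3084a-3p, miR-3084b-3p and miR-3084d.

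**Figure D3:**
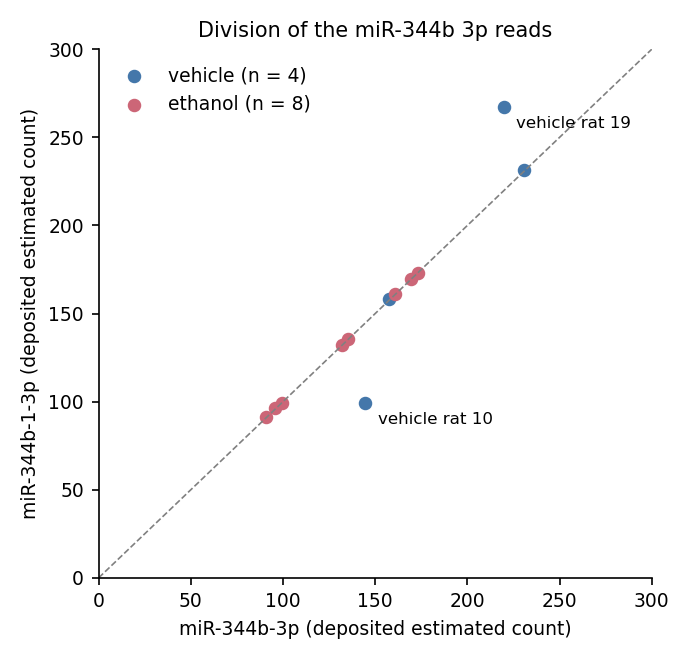
Each point is a library, with the deposited estimated count of miR-344b-3p on the horizontal axis and that of miR-344b-1-3p on the vertical axis; the dashed line marks equal counts. On the line or within 1 read of it lie 10 points, and vehicle rats 10 and 19 lie off it on opposite sides, at 40.7% and 54.9% miR-344b-1-3p.

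When the miR-344b 3p rows were summed, they exceeded miR-344a-3p. This sum was chosen after these counts were seen. It was 104, 104, 102 and 98.3 CPM in vehicle rats 9, 10, 19 and 20. In ethanol rats it had a lowest value of 81.7, a median of 94.8 and a highest value of 119 CPM. The vehicle rats were close together and the ethanol rats spread to both sides of them, 6 below the lowest vehicle rat and 2 above the highest. With these rows merged before scaling, the merged row exceeded miR-344a-3p by 0.39 on the log2 scale in 12 of 12 libraries [exact sign-flip permutation test, p = 0.000488, adjusted over 3 neighbours p = 0.000732]. Which member leads the family thus depended on whether these rows were counted apart or together.

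Of the letters with both arms in the lists, miR-344b was read mostly from the 3p side, and miR-344a had reads listed for the 3p arm alone. For miR-344a the files held 2755 reads of the 3p arm and 0 of the 5p arm over the 12 libraries. These rows need not be the arms of 1 hairpin, since miR-344a-3p had no RefSeq entry and miR-344a-5p was named for Mir344a-2 alone. The 5p arm of Mir344-1, miR-344-5p, holds all 19 bases of miR-344a-5p and has no row in the lists. If the 5p row was counted, the 3p row was at least 49-fold higher in ethanol rat 3, against a floor of 3 counts per library. That rat had the fewest reads of miR-344a-3p. In vehicle rat 20 the 3p row was at least 133.7-fold higher. On the same condition, a count of 0 allows a 5p share of up to 0.748% to 2.04% within single libraries. For miR-344b, with the 3p rows summed, the lists held 3624 reads of the 3p arm and 259 of the 5p arm. The 3p arm was 9.29-fold to 33.2-fold more abundant, with a median of 14.1-fold. Reads of miR-344b were more numerous for the 3p than for the 5p arm in 12 of 12 libraries [exact sign-flip permutation test of log2 ratios with a pseudocount of 0.5, p = 0.000488]. No test is given for miR-344a, where a 5p count of 0 throughout fixes the sign of each ratio.

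The 5p share of miR-344b reads did not separate the groups. It was 9.71%, 6.51%, 5.07% and 7.23% in vehicle rats 9, 10, 19 and 20, a mean of 7.13% ± 1.94 (SD, n = 4). In ethanol rats the mean was 6.37% ± 1.89 (SD, n = 8), from 2.93% in ethanol rat 3 to 8.63% in ethanol rat 16. The lowest share rested on 6 reads of miR-344b-5p, and its 95% Wilson interval reached from 1.35% to 6.24%. The mean log2 ratio of 3p to 5p was higher after ethanol by 0.19, a difference within the spread between rats [exact permutation test, p = 0.541]. The groups were not compared for miR-344a, where the ratio would follow the 3p count alone.

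**Figure D4:**
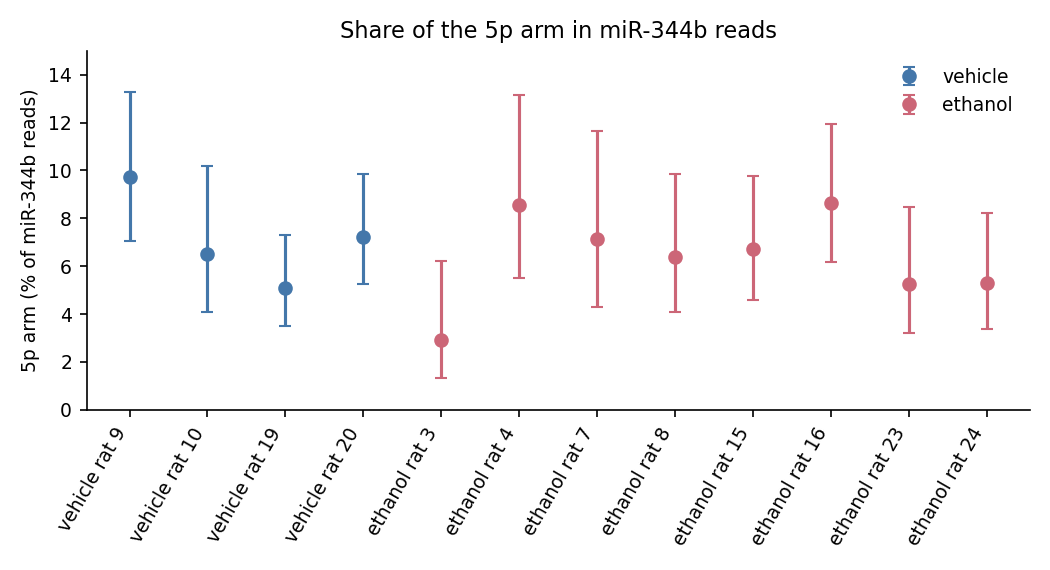
Points give the 5p arm's share of miR-344b reads (vertical axis, percent) in each of the 12 libraries, and the bars are 95% Wilson intervals, which cover counting error only. The shares run from 2.93% to 9.71%, and the groups' shares overlap, although the intervals of ethanol rat 3 and vehicle rat 9, at the ends of the range, do not.

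No member of the family passed the test of ethanol against vehicle. Counts were compared with edgeR's quasi-likelihood test across all 420 retained miRNAs, with Benjamini-Hochberg adjustment over all of them. At an adjusted p under 0.05, 0 of the 5 retained members were called, as were 0 of the 420 miRNAs (0%). At an unadjusted p under 0.05 the counts were 0 of 5 members and 17 of 420 miRNAs (4.05%). DESeq2's Wald test called 0 of the 5 members and 1 of the 420. The groups overlapped in each of the 5 members, while 1 of the 420 retained miRNAs (0.238%) had groups that did not. Counts of this kind are shares of a library from whole tissue, so that fewer cells of a type and less RNA per cell cannot be told apart.

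Mean expression of miR-344a-3p stood at 77.8 ± 10.9 CPM (SD, n = 4) without ethanol and at 73.8 ± 4.79 CPM (SD, n = 8) with it. Its log2 fold change was -0.07 (SE 0.10) [edgeR's quasi-likelihood test, adjusted p = 0.971], and the exact permutation test gave p = 0.42. Of the 8 ethanol rats, 7 lay within the vehicle range and 1 lay below it. The 95% interval of the log2 fold change, from -0.28 to 0.13, corresponds to a fold of 0.822 to 1.10.

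Expression of miR-344b-3p was 52.1, 61.6, 46.2 and 49.1 CPM in vehicle rats 9, 10, 19 and 20, against a lowest value of 40.7, a median of 47.4 and a highest value of 59.4 in ethanol rats. Its log2 fold change was -0.11 (SE 0.11) [edgeR, adjusted p = 0.971]. Expression of miR-344b-1-3p was 52.3, 42.3, 56.2 and 49.2 CPM in vehicle rats 9, 10, 19 and 20, against a lowest value of 41.0, a median of 47.4 and a highest value of 59.6 in ethanol rats. Its log2 fold change was -0.05 (SE 0.11) [edgeR, adjusted p = 0.987]. Exact permutation tests gave p = 0.297 and 0.679 for the respective rows. With counts the same in 6 of 12 libraries and within 1 read in 10, these rows are not independent of each other. Merged into 1 row, the miR-344b 3p reads had a log2 fold change of -0.07 (SE 0.10).

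The 3p arm of the hairpin nearest to Ndn, miR-344i, was read at 12.5, 9.36, 7.15 and 7.23 CPM in vehicle rats 9, 10, 19 and 20. In ethanol rats its lowest value was 4.63, its median 7.28 and its highest 9.40 CPM. Of the ethanol rats, 4 of 8 lay below every vehicle rat, and the highest value belonged to vehicle rat 9. Its log2 fold change was -0.32 (SE 0.21) with a 95% interval from -0.78 to 0.14 [edgeR, adjusted p = 0.971], and the exact permutation test gave p = 0.135, where 0.00202 is the smallest it can give. Without vehicle rat 9 the log2 fold change was -0.12. Reads of miR-344i numbered from 10 to 38 per library, and its coefficient of variation over the 12 libraries was 28.0% beside a mean counting error of 22.0%.

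Expression of miR-344b-5p was 11.2, 7.24, 5.47 and 7.66 CPM in vehicle rats 9, 10, 19 and 20. In ethanol rats its lowest value was 2.78, its median 7.07 and its highest 11.2 CPM. The groups had nearly the same highest value, and the lowest belonged to ethanol rat 3. Its log2 fold change was -0.22 (SE 0.28) with a 95% interval from -0.83 to 0.39 [edgeR, adjusted p = 0.971], and the exact permutation test gave p = 0.384. The log2 fold change of miR-344b-5p was -0.0038 without vehicle rat 9, -0.08 without ethanol rat 3, -0.37 without ethanol rat 16 and -0.38 without vehicle rat 19. Its coefficient of variation was 34.1% beside a mean counting error of 23.3%. The abundant members varied less, at 9.47% beside 6.81% for miR-344a-3p, and the median coefficient of variation of the 420 retained miRNAs was 16.6%.

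Fitted log2 fold changes were below 0 for 5 of 5 retained members, with a median of -0.11, beside 227 of 420 retained miRNAs (54%) and a median of -0.02. The 5 stayed below 0 under TMM, DESeq2-style, upper quartile and library-total scaling. For miR-344a-3p and miR-344b-1-3p this direction rested on single rats. The value of miR-344a-3p moved to 0.01 without vehicle rat 20 and that of miR-344b-1-3p to 0.02 without vehicle rat 19. Those of miR-344b-3p, miR-344b-5p and miR-344i stayed below 0 with each rat left out. The miR-344b 3p rows, counted here as separate members, are not independent of each other. A comparison list of neuron-enriched miRNAs was set beside the family. Of its 14 miRNAs 13 were retained, with miR-129-5p listed at 0, and 12 of the 13 were below 0, with a median of -0.12 and a range from -0.22 for miR-7a-5p to 0.31 for miR-383-5p. None of the 13 passed edgeR's quasi-likelihood test at an adjusted p under 0.05, and 0 did so at an unadjusted p under 0.05.

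**Figure D5:**
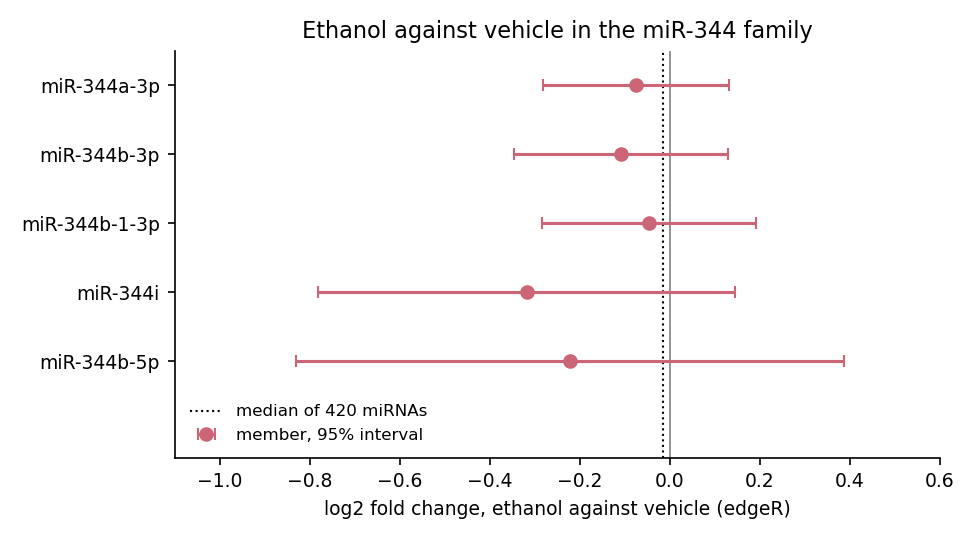
Points give the log2 fold change of ethanol against vehicle from edgeR (horizontal axis) for the 5 retained members, with 95% intervals as bars; the dotted line is the median of the 420 retained miRNAs. Each interval crosses 0, and those of miR-344i and miR-344b-5p are the widest.

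The seed partner of miR-344b-1-3p was far more abundant than the member itself. Expression of miR-410-3p stood at 3423 ± 231 CPM (SD, n = 4) without ethanol and at 3325 ± 299.6 CPM (SD, n = 8) with it. It exceeded miR-344b-1-3p by 55.6-fold to 87.8-fold over the 12 libraries, with a median of 69.0-fold, so that miR-344b-1-3p was a small part of the reads with that seed. Its log2 fold change was -0.04 (SE 0.08) [edgeR, adjusted p = 0.971]. By contrast, miR-344a-5p, listed at 0, stood beside 25.8 CPM of miR-484. The seed shared by miR-344b-5p and miR-344g was read at 7.40 CPM in all.

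Over the 12 libraries, 0 of 4 relations between miR-344a-3p and the other retained members passed after adjustment. The log2 CPM of miR-344a-3p was compared with that of each other retained member over the 12 libraries, in 4 pairs, with 100000 permutations and adjustment over the pairs. Pearson's r with miR-344b-3p was 0.59 [permutation p = 0.0466, adjusted p = 0.186] and Spearman's rho was 0.61 [permutation p = 0.0395, adjusted p = 0.158]. Without vehicle rats 10 and 20, the libraries farthest from the median of miR-344a-3p, r was 0.42. Leaving out vehicle rat 9 alone raised rho to 0.8 [permutation p = 0.00475, adjusted p = 0.019, n = 11], while r was 0.68 [adjusted p = 0.0756], so that this relation passed or failed by a single rat and by the measure used. Vehicle rat 10 is also a library in which the miR-344b 3p reads were listed unequally.

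With miR-344b-1-3p, Pearson's r was -0.12 and rho -0.02 [permutation p = 0.71 and 0.955, adjusted p = 0.806 and 0.955], and r was 0.21 without vehicle rats 10 and 20. With miR-344b-5p, r was 0.31 and rho 0.36 [permutation p = 0.332 and 0.245, adjusted p = 0.664 and 0.49], and r was 0.34 without those rats. With miR-344i, r was 0.08 and rho 0.24 [permutation p = 0.806 and 0.443, adjusted p = 0.806 and 0.591], and r was -0.12 without those rats. With the miR-344b 3p rows merged, r with miR-344a-3p was 0.36 and rho 0.30 [permutation p = 0.257 and 0.34, adjusted over 3 pairs p = 0.509 and 0.589], and r was 0.35 without those rats. Within the 8 ethanol rats, r with the merged row was 0.56 and rho 0.74 [permutation p = 0.145 and 0.046, adjusted p = 0.259 and 0.138]. The 4 vehicle rats are too few for a correlation. Over all 87990 pairs of retained miRNAs, the median r was -0.01, with 5th and 95th percentiles of -0.57 and 0.60.

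Of the 340 retained miRNAs outside the family with a mean of at least 10 CPM, the 5 whose log2 CPM was most like that of miR-344a-3p over the 12 libraries were miR-98-5p (Pearson's r = 0.71), miR-935 (0.71), miR-484 (0.69), let-7d-5p (0.67) and miR-411-3p (0.65). They were picked as the highest of 340, and the values share library scaling, so they are given as a description. Within the 8 ethanol rats, r was 0.78, 0.55, 0.72, 0.74 and 0.48 for the same miRNAs in that order. Among the 13 retained neuron-enriched miRNAs, r with miR-344a-3p ran from -0.15 for miR-153-3p to 0.59 for miR-138-5p, with a median of 0.27, beside a median of 0.06 over all retained miRNAs outside the family.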

How the data were processed

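Gel-purified small RNA from 12 rats was sequenced on a MiSeq. The authors deposited 1 list per rat, in which each of 753 mature miRNAs has an estimated count, partly fractional and not scaled to library size. The submitters' processing notes name Partek, cutadapt and rn5; the counting rule and miRNA annotation are not given in the sources used here. Counts were rounded for testing and given unrounded in CPM. MiRNAs under 10 reads in at least 10 libraries were dropped (420 retained). Ethanol and vehicle were compared across all retained miRNAs with edgeR 4.0.16 (TMM, quasi-likelihood test, no covariate, Benjamini-Hochberg) in R 4.3.3; log2 CPM used a prior count of 2. DESeq2 1.42.0 and limma 3.58.1 served as alternatives. Exact permutation, sign-flip and correlation tests, all two-sided, used Python 3.11.15. Fits were tested on simulated data. Sequences were matched by name to RefSeq's GRCr8 table. The members and lists were chosen with earlier results of these data known; the members named were all 7, the miRNAs that share a seed with a member, the 5 most like miR-344a-3p and the comparison list. Sequencing sets are not in the labels, so batches were not compared.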

Additional observations from a re-analysis of the deposited data

How the results depend on the processing

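The count of called members was 0 under 22 of 22 alternatives (scaling, filter, DESeq2, limma-trend, unrounded counts, merged miR-344b 3p rows, each rat left out), and their lowest adjusted p was 0.787. The count of all miRNAs with an unadjusted p under 0.05 moved from 17 to between 5, without vehicle rat 20, and 24, without vehicle rat 19. All log2 fold changes of the retained members stayed below 0 under 20 of the 22. The setting without a filter also fitted miR-344g, whose log2 fold change was above 0, at 1.37 (SE 0.82). That value rests on 0 to 2 reads per library, under the floor of 3 counts. When single rats were dropped, the log2 fold change ran from -0.13 to 0.0093 (without vehicle rat 20) for miR-344a-3p and from -0.12 to 0.016 (without vehicle rat 19) for miR-344b-1-3p, and the mean log2 difference of the permutation test from -0.13 to 0.016 and from -0.12 to 0.015, without the same rats. The log2 fold change ran from -0.16 to -0.02 for miR-344b-3p, from -0.38 to -0.0038 for miR-344b-5p and from -0.42 to -0.12 for miR-344i. The causes were not tested. Without ethanol rat 16, 3 miRNAs outside the family were called. The number of separated neighbour pairs was 2 under each of 14 alternatives, though with merged rows the miR-344b 3p row led miR-344a-3p, and without vehicle rat 10 miR-344b-1-3p stood above miR-344b-3p. The 3p arm of miR-344b led under each of 13. The 3p to 5p difference between groups ran from 0.01 to 0.35 with each rat left out.

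The correlation of miR-344a-3p with miR-344b-1-3p (r = -0.12) was 0.54 in the 8 ethanol rats and 0.21 without vehicle rats 10 and 20, and ran from -0.31 to 0.16 with each rat left out. That with miR-344i (r = 0.08) was -0.12 without vehicle rats 10 and 20, -0.078 there with merged rows, and ran from -0.24 to 0.37 with each rat left out. No alternative gave an adjusted p under 0.05 for Pearson's r. For Spearman's rho 1 did, that of miR-344a-3p with miR-344b-3p without vehicle rat 9 (rho = 0.8, permutation adjusted p = 0.019, n = 11); the cause was not tested. The difference in log2 library totals ran from -0.59, without vehicle rat 10 (exact permutation p = 0.0364), to -0.21. Each rat received 1 treatment only, and litters and cages, which could link rats, are not in the labels. No paired analysis was therefore possible, and the rats were treated as independent. Depth limited miR-344g, which lay under 3 counts in each library, and miR-344i and miR-344b-5p, where counting error was more than 20% of the value.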

Other observations

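Dixon's test of a single extreme library was run on 9 measures in each group. They were the 5 retained members, the family sum, the miR-344b arm ratio, the share of miR-344b-1-3p and the library total. The test passed its threshold in 0 of 18 groups, where chance would give 0.9 if the measures were independent. They were not, since the family sum and the arm ratio are built from the members. In ethanol rats the share of miR-344b-1-3p was 50% in the 6 libraries with identical counts, which left no gap at its low end. The test cannot pick out a pair of libraries on opposite sides, as vehicle rats 10 and 19 were in the share of miR-344b-1-3p. The summed miR-344b 3p reads had an SD of 2.74 CPM among the 4 vehicle rats and 11.4 CPM among the 8 ethanol rats. This contrast was noticed in the data, and the difference in spread was not tested. Ethanol rat 3, with the lowest value of miR-344a-3p, miR-344b-5p and miR-344i, had a total of 2071127 counts, and ethanol rat 7, the smallest library at 1960704, had the highest value of miR-344a-3p in its group, 81.8 CPM.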
